A study of Mus musculus with 4 samples.

Results

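Mast cells of mouse inguinal fat were the 67 cells, among 14931 that passed the cell filter, that met a rule on their raw transcript counts. A cell was kept with at least 300 genes, at least 500 unique molecular identifiers (UMIs, each standing for 1 captured transcript) and at most 10% of its UMIs in mitochondrial genes. It was called a mast cell when at least 3 of 6 genes were detected in it (Cpa3, Mcpt4, Cma1, Tpsb2, Fcer1a and Ms4a2) and when the progenitor gene Pdgfra, the B cell gene Cd79a and the T cell gene Cd3e were all at 0. These 9 genes chose the cells, so their values are given as a description.

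The stromal vascular fraction of inguinal white fat, which holds the cells of fat other than adipocytes, was profiled by droplet single-cell RNA sequencing with 10x Genomics 3′ v3 chemistry. Magnetic beads split each cell suspension into a Lin+ fraction, positive for immune lineage markers, and a Lin- fraction holding the remaining cells. The tissue came from 8 iAdFASNKO mice, pooled, and from 7 control mice labelled C57BL/6, also pooled. Each genotype and fraction gave 1 library.

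The labels do not spell out iAdFASNKO, which is known as the name of mice that lose Fasn, the fatty acid synthase gene, in adipocytes upon induction. The driver of the deletion, the inducing agent, and the age, sex and diet of the mice are not stated in the labels. Adipocytes are not part of the stromal vascular fraction, so Fasn does not check the genotype in these cells: 1 Fasn UMI was found in Lin+ iAdFASNKO mast cells and 0 in each of the other 3 sets of mast cells. Each matrix carries KO or WT in its name, which gave the genotype. With 1 pooled library for each genotype and fraction there is no replicate pool, so no p-value is given between genotypes, and the intervals given cover counting error only.

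Mast cells are long-lived tissue immune cells that store histamine, heparin and serine proteases in granules. They release the granules within minutes when IgE bound to its high-affinity receptor is cross-linked by antigen, or when peptides engage the receptor Mrgprb2, and they depend on stem cell factor acting through the receptor Kit. Mouse mast cells of connective tissue carry the chymase Mcpt4, the elastase-like chymase Cma1, tryptases and carboxypeptidase A3, whereas mast cells of mucosa carry Mcpt1 and Mcpt2. In fat they lie along vessels, nerves and fibrous septa.

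The marker genes lie at separate places in the mouse genome (build GRCm38, also called mm10). Cpa3, carboxypeptidase A3, spans chr3:20215620-20242181 and the tryptase Tpsb2 chr17:25366305-25369098. Cma1 spans chr14:55941451-55944675 and Mcpt4 chr14:56059629-56062313, both within the chymase cluster. Fcer1a, the IgE-binding subunit of the receptor, spans chr1:173221284-173227214, and Ms4a2, its signal-amplifying beta subunit, chr19:11615523-11623719. Promoters are shown for the 5 of these 6 genes that had an entry in the RefSeq promoter table (GRCm38.p6), since the rule rests on them. Each sequence is the 250 bases before the annotated start, 5′ to 3′ on the minus strand, where all 5 genes lie. Capitals mark matches to a GATA-type word on either strand, either AGATAA (or its form ending in G, which reads AGATAG) or the word TGATAA (or its form ending in G, which reads TGATAG), a motif bound by factors such as Gata2.
Cpa3, chr3:20242182-20242431: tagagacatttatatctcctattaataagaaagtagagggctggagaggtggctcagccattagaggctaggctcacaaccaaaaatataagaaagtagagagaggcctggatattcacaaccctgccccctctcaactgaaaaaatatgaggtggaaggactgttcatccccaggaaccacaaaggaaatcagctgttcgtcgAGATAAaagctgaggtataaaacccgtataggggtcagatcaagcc
Mcpt4, chr14:56062311-56062560: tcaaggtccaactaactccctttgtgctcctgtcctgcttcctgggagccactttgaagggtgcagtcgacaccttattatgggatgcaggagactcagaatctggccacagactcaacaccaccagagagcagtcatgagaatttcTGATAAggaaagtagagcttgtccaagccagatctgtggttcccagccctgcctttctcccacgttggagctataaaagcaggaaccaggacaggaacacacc
Cma1, chr14:55944676-55944925: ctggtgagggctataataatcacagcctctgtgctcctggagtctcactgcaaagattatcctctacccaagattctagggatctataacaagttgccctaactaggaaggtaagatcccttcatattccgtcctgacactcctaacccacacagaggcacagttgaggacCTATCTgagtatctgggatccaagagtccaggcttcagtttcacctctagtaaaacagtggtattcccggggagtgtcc
Fcer1a, chr1:173227230-173227479: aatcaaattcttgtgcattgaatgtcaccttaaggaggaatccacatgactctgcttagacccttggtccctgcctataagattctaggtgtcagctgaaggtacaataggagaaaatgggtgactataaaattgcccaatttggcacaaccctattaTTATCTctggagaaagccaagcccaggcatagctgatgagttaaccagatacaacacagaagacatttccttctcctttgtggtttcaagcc
Ms4a2, chr19:11623720-11623969: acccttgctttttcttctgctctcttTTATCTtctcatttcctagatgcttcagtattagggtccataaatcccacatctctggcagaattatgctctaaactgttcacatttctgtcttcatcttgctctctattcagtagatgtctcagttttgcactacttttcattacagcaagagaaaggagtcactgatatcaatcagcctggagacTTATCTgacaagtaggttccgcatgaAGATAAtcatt

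Each of the 5 promoters held at least 1 match. It began 46 bases before the start in Cpa3, 103 in Mcpt4, 79 in Cma1 and 92 in Fcer1a, while Ms4a2 held 3, at 224, 37 and 11 bases. The search was widened to the 6 marker genes and the 25 genes highest in mast cells relative to other cells, of which 26 of 31 had an entry, with 35 windows reaching from 250 bases before to 50 after a start. A GATA-type word lay in 20 of these 35 windows (57.1%), against 29.8% of all 32851 windows in the table. Counted by gene, 18 of 26 genes (69.2%) had one, against 33.0% of 27025 genes. An E-box word, either CACGTG or the related CATGTG on either strand, lay in 5 of the 35 windows (14.3%), against 20.4% of all windows. A match is a description of the letters in the window.

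The 67 mast cells held 134282 UMIs in all. They were 21 of 4494 kept cells in the Lin+ iAdFASNKO library, a share of 0.467% (exact Clopper-Pearson 95% interval 0.289% to 0.713%), against 18 of 2922 in Lin+ control, a share of 0.616% (0.365% to 0.972%). In the Lin- fraction they were 19 of 4412 iAdFASNKO cells, a share of 0.431% (0.259% to 0.672%), against 9 of 3103 control cells, a share of 0.290% (0.133% to 0.550%). The ratio of shares, iAdFASNKO over control, was 0.759 in Lin+ (95% interval 0.405 to 1.42) and 1.48 in Lin- (0.673 to 3.28). Both intervals included 1, and the ratios lay on opposite sides of it. The Lin+ share over the Lin- share was 1.09 in iAdFASNKO (0.584 to 2.02) and 2.12 in control (0.956 to 4.72), and both intervals included 1.

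The Lin+ ratio moved with the limit on mitochondrial RNA. Beside the 67 cells, 33 further barcodes met the marker rule and every other filter but held over 10% mitochondrial UMIs, 9 of them in Lin+ iAdFASNKO and 19 in Lin+ control, against 1 in Lin- iAdFASNKO and 4 in Lin- control. Their median mitochondrial share was 12.3% and their median Mcpt4 count 38 UMIs (6 to 99), and Kit was detected in 31 and Hdc in 32 of them. With a limit of 20%, mast cells were 0.546% of Lin+ iAdFASNKO cells (29 of 5313) and 1.15% of Lin+ control cells (37 of 3204), a ratio of 0.473 (0.291 to 0.767). The interval then lay below 1. The Lin- ratio under that limit was 1.17 (0.582 to 2.34). In a further setting, cells with at least 1000 UMIs were thinned to 1000 and shallower cells were left out. That removed 2 mast cells of Lin+ iAdFASNKO, 3 of Lin+ control, 10 of Lin- iAdFASNKO and 1 of Lin- control. After thinning, 20 of 4015 Lin+ iAdFASNKO and 13 of 2646 Lin+ control cells met the rule, a ratio of 1.01 (0.505 to 2.03). In Lin-, 9 of 4073 iAdFASNKO and 7 of 2944 control cells then met the rule, a ratio of 0.929 (0.346 to 2.49). As a share of cells with a Ptprc UMI the ratio was 0.398 (0.159 to 1.00) in Lin+ and 0.708 (0.193 to 2.61) in Lin-. The Lin- ratio was thus above 1 over all kept cells and below 1 under both of these settings.

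**Figure D1:**
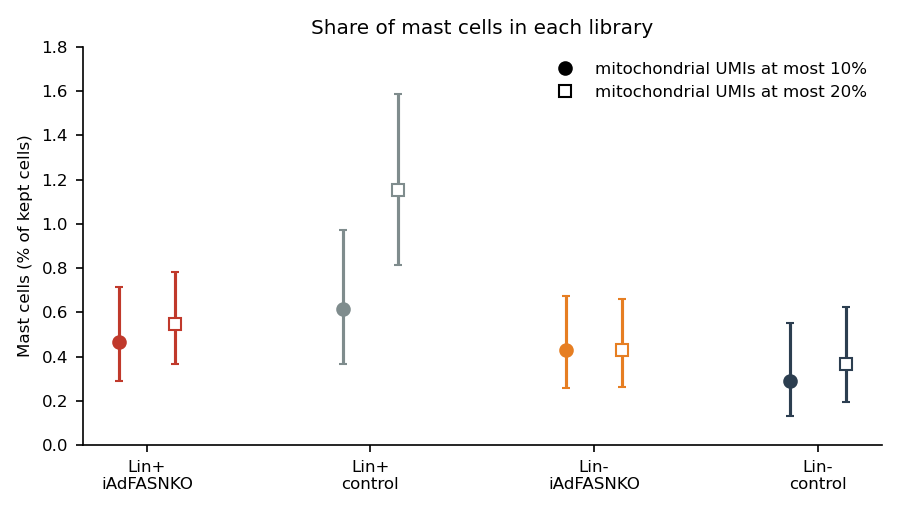
Mast cells as a percentage of kept cells in each library (vertical axis), with circles for the mitochondrial limit of 10%, squares for a limit of 20% and bars for exact 95% intervals. The Lin+ control share was 0.616% under the lower limit and 1.15% under the higher one, while the Lin- iAdFASNKO share was 0.431% under the lower and 0.428% under the higher limit.

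Mast cells were shallow. Their median depth was 2057 UMIs in Lin+ iAdFASNKO, 1896.5 in Lin+ control, 834 in Lin- iAdFASNKO and 1999 in Lin- control, against a median of 3356 UMIs in Lin+ iAdFASNKO, 5429.5 in Lin+ control, 4215 in Lin- iAdFASNKO and 9152 in Lin- control for the other cells. Their median mitochondrial share was 7.46% in Lin+ iAdFASNKO, 7.69% in Lin+ control, 4.84% in Lin- iAdFASNKO and 6.37% in Lin- control, against 2.62% to 4.77% in other cells. The libraries held 21622291 to 33016494 UMIs. Of the kept cells, 156 barcodes occurred in more than 1 library, and none of them was a mast cell. The ratios of shares under a mitochondrial limit of 20% and after thinning are given above, and the part of depth and of mitochondrial RNA in the differences in expression was not tested.

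At the edges of the rule, 23 of the 67 cells had all 6 markers, 22 had 5, 16 had 4 and 6 had exactly 3. The 61 cells with 4 or more markers had a median of 65 Mcpt4 UMIs, and Kit was detected in 52 of them. The 6 cells with exactly 3 had a median of 0 Mcpt4 and 21 Hdc UMIs, and Kit was detected in 1. Just outside, 18 kept cells had exactly 2 markers with the excluded genes at 0, none with more than 1 Mcpt4 UMI and none with a Kit UMI. A further 7 cells with 3 or more markers were left out by an excluded gene (4 in Lin+ iAdFASNKO, 0 in Lin+ control, 1 in Lin- iAdFASNKO and 2 in Lin- control), with a median of 47 Mcpt4 UMIs.

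Inside the rule, 4 cells stood apart: 2 from Lin+ control, 2 from Lin- control and 0 from the iAdFASNKO libraries. They held no UMI of Mcpt4 or Tpsb2 and met the rule through Cpa3, Ms4a2, Fcer1a and Cma1 at low counts, 10, 5, 6 and 2 UMIs summed over the 4 cells. Kit was at 0 in them, against 245 UMIs in 53 of the other 63 cells, and Mrgprb2 at 0, against 55 UMIs. Il1rl1, the IL-33 receptor, gave 1 UMI, against 173. In place of these genes they held Ccl3, a chemokine for macrophages and lymphocytes, with 217 UMIs in 4 of 4 cells, against 0 in the other 63. Its neighbour Ccl4 had 350 UMIs in 3 of 4 cells, against 0, and the chemokine Ccl6 95 UMIs, against 0. Ifitm1 had 67 UMIs, against 2, and the cytokine Il6 11, against 0.

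The 4 cells shared other genes with the rest. Hdc, the histamine-forming enzyme, stood at 11267 CPM (UMIs scaled to a total of 1000000), against 7273 CPM in the other 63, the factor Gata2 at 1943 against 972 CPM, and Cd200r3 at 855 against 379 CPM. Of the basophil genes fixed for comparison, Mcpt8 gave 3 UMIs in 1 of the 4 cells and 0 in the other 63, whereas Prss34 gave 0 in the 4 and 35 UMIs in 12 of the other 63. Scrublet, a caller of droplets that hold 2 cells, marked 2 of the 67 cells, both from Lin+ control and both among these 4. The data thus go against the label for these 4 cells, which are given no other name, and the counts of genes called between genotypes are stated with and without them. They were set apart after their values had been seen.

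**Figure D2:**
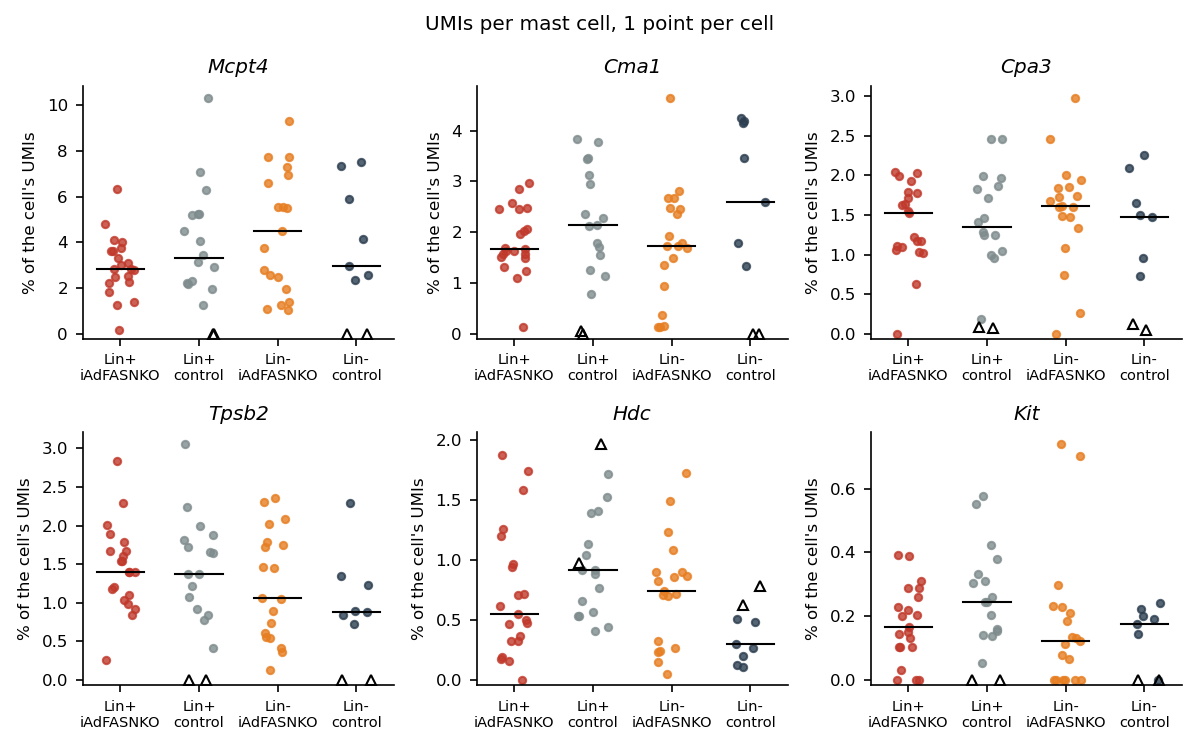
Percentage of each mast cell's UMIs (vertical axes) that fell in Mcpt4, Cma1, Cpa3, Tpsb2, Hdc and Kit, with 1 point per cell, bars at the median of each library and open triangles for the 4 cells without Mcpt4 and Tpsb2. The triangles sit at 0 for Mcpt4, Tpsb2 and Kit and within or above the other cells of their library for Hdc, while the remaining cells of the 4 libraries overlap for each gene.

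The granule proteases made up a sizeable part of the RNA of the cells. The 14 protease genes listed made up 7.66% of mast cell UMIs in Lin+ iAdFASNKO, 8.61% in Lin+ control, 10.6% in Lin- iAdFASNKO and 7.12% in Lin- control. Because 3′ libraries count each captured transcript at its end, CPM levels are not scaled by gene length here. Mcpt4 led with 30886 CPM in Lin+ iAdFASNKO, 38267 in Lin+ control, 53754 in Lin- iAdFASNKO and 30567 in Lin- control mast cells, against 11.0 CPM in all other cells together. Single cells held 5 to 266 Mcpt4 UMIs in Lin+ iAdFASNKO (median 63), 0 to 303 in Lin+ control (63.5), 8 to 203 in Lin- iAdFASNKO (45) and 0 to 150 in Lin- control (82). The 4 libraries overlapped almost wholly.

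Cma1 followed at 16730 CPM in Lin+ iAdFASNKO, 19405 in Lin+ control, 20496 in Lin- iAdFASNKO and 20959 in Lin- control mast cells. Cpa3, which trims peptides after chymase has cut them, stood at 13486 CPM in Lin+ iAdFASNKO, 13772 in Lin+ control, 16769 in Lin- iAdFASNKO and 10717 in Lin- control. The tryptase Tpsb2 stood at 14628 CPM in Lin+ iAdFASNKO, 14030 in Lin+ control, 14254 in Lin- iAdFASNKO and 7497 in Lin- control. Cpa3 and Tpsb2 were lowest in Lin- control, where 2 of the 9 cells lacked Tpsb2. Minor proteases were far scarcer: the transmembrane tryptase Tpsg1 averaged 276 CPM over all mast cells, Prss34 261 CPM and the tryptase Tpsab1 127 CPM. Cma2 gave 4 UMIs. Gzmb, granzyme B, gave 22 UMIs, all in 2 cells of Lin- control. The mucosal proteases Mcpt1 and Mcpt2 and also Mcpt9 were at 0, which allows up to 54.4 CPM in Lin+ iAdFASNKO, 77.5 in Lin+ control, 140 in Lin- iAdFASNKO and 158 in Lin- control (3 UMIs of each sum).

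Near-identical copies could split reads among proteases. The 16 genes compared were serine protease genes and the receptor genes Mrgprb1, Mrgprb2 and Mrgprx2. Among their 240 ordered pairs, 4 shared any 60-base word within the last 500 bases of their transcripts, the stretch that 3′ reads cover. Cma1 and Tpsb2 shared none, and Mcpt4 shared 9.30% of its words with Cma2. Protease RNA was also found outside mast cells: 3.80% of other cells in Lin+ iAdFASNKO, 3.72% in Lin+ control, 5.08% in Lin- iAdFASNKO and 3.46% in Lin- control held a Mcpt4 UMI. Cells with a Pdgfra UMI, which are progenitors, had one in 4.08% of cases. The mast cells held 82.8% of all Mcpt4 UMIs of kept cells.

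Genes of histamine and of the granule matrix were also detected. Hdc stood at 7305 CPM in Lin+ iAdFASNKO, 10568 in Lin+ control, 6521 in Lin- iAdFASNKO and 4012 in Lin- control mast cells, and 48.6% of all Hdc UMIs of the series lay in the 67 cells. Srgn, the serglycin core protein on which heparin is built, stood at 2610 CPM in Lin+ iAdFASNKO, 2532 in Lin+ control, 2655 in Lin- iAdFASNKO and 4804 in Lin- control. Slc18a2, the transporter that loads amines into granules, averaged 886 CPM over all mast cells, and Tph1, which starts serotonin synthesis, 216 CPM. Ndst2, needed to sulphate heparin, averaged 432 CPM and Ext1, which extends its chain, 387 CPM. Over the 67 cells, Hdc was detected in 66, Slc18a2 in 49 and Tph1 in 21.

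Lysosome genes formed a contrast. The membrane protein Cd63, a common marker of granule release, averaged 834 CPM in mast cells and 968 CPM in other cells. The protease Ctsd averaged 707 CPM in mast cells, against 188 CPM in other cells. Of exocytosis genes, Rab27b averaged 484 CPM, against 2.72 CPM in other cells.

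All 3 chains of the IgE receptor were detected. The common gamma chain Fcer1g stood at 1396 CPM in Lin+ iAdFASNKO, 1602 in Lin+ control, 2282 in Lin- iAdFASNKO and 2376 in Lin- control mast cells. Fcer1a stood at 526 CPM in Lin+ iAdFASNKO, 723 in Lin+ control, 419 in Lin- iAdFASNKO and 1003 in Lin- control, and Ms4a2 at 363 CPM in Lin+ iAdFASNKO, 465 in Lin+ control, 373 in Lin- iAdFASNKO and 845 in Lin- control. All 3 chains were highest in Lin- control. Fcer1g is shared with other immune cells, and macrophages called by a marker rule (202 cells) had 1718 CPM of it. The kinase Lyn, which starts the signal, averaged 246 CPM, the adaptor Lat2 350 CPM and the inhibitory phosphatase Inpp5d 477 CPM. The kinase Syk gave 16 UMIs in 16 cells.

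Among surface receptors, Kit stood at 1958 CPM in Lin+ iAdFASNKO, 2119 in Lin+ control, 1723 in Lin- iAdFASNKO and 950 in Lin- control mast cells. Kit was at 0 in 3 cells of Lin+ iAdFASNKO, 2 of Lin+ control, 6 of Lin- iAdFASNKO and 3 of Lin- control. The Mas-related receptor Mrgprb1 stood at 2175 CPM in Lin+ iAdFASNKO, 2067 in Lin+ control, 1723 in Lin- iAdFASNKO and 1003 in Lin- control. Its relative Mrgprb2 averaged 410 CPM and the adenosine receptor Adora3 231 CPM. Il1rl1 stood at 1106 CPM in Lin+ iAdFASNKO, 1240 in Lin+ control, 1956 in Lin- iAdFASNKO and 1214 in Lin- control mast cells, against 329 CPM in type 2 innate lymphoid cells (161 cells chosen by markers that include it). The amine-degrading enzyme Maob averaged 156 CPM. The noradrenaline transporter Slc6a2, Th and the receptors Adrb1 and Adra2a were at 0.

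To set detection against background, every cell was thinned to 500 UMIs. Kit was then found in 53.7% of mast cells and in 0.0574% of cells with a Pdgfra UMI, a class that should lack it, Hdc in 89.6% against 0.0862%, Il1rl1 in 58.2% against 0.172%, Gata2 in 28.4% against 0.0431% and Fcer1g in 61.2% against 0.345%. Unthinned, Kit was found in 79.1% of mast cells and in 0.302% of Pdgfra cells, with median depths of 1791 and 8027 UMIs. The pan-leukocyte gene Ptprc was found in only 11.9% of thinned mast cells, against 0.847% of Pdgfra cells.

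Of transcription factors, Gata2 stood at 1069 CPM in Lin+ iAdFASNKO, 749 in Lin+ control, 932 in Lin- iAdFASNKO and 1848 in Lin- control mast cells. Zeb2 averaged 797 CPM, Meis2 521, Mitf, which drives mast cell genes with Gata2, 343 and Tal1 313 CPM. Hpgds, which makes prostaglandin D2, averaged 402 CPM over the 4 libraries, Alox5ap 156 CPM, and Ptgs2 was at 0. Of cytokine genes, Ccl2, a monocyte chemokine, averaged 685 CPM, Csf1 395 CPM and Vegfa 171 CPM. Tnf gave 24 UMIs, Il4 13 and Il13 11. Il3, Il5, Il9, Il10, Csf2, Lif and Areg were at 0.

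Most defining genes of other immune cells were at 0 in the mast cells. All 4 T cell genes, all 3 eosinophil genes, C1qa, C1qb, C1qc and Mrc1 of macrophages, S100a9, Retnlg and Csf3r of neutrophils, and Cd79a, Cd79b and Ms4a1 of B cells were at 0. Of these, the T cell gene Cd3e and the B cell gene Cd79a were at 0 by the rule. The 6 progenitor genes summed to 686 to 2422 CPM in mast cells, against 24665 to 58562 CPM in other cells, with Pdgfra at 0 by the rule. The 4 haemoglobin genes summed to 44517 CPM in Lin+ iAdFASNKO, 2532 in Lin+ control, 0 in Lin- iAdFASNKO and 52.8 in Lin- control mast cells. The same sums in other cells were 12427 CPM in Lin+ iAdFASNKO, 6030 in Lin+ control, 16.6 in Lin- iAdFASNKO and 22.5 in Lin- control. A single Lin+ iAdFASNKO cell held 2301 of the haemoglobin UMIs. The 4 basophil genes (Mcpt8, Prss34, Itga2 and Cd200r3, the last also a gene of mast cells) summed to 671 to 1071 CPM in mast cells, against 3.05 to 17.0 CPM in other cells. The 8 genes of type 2 innate lymphoid cells, Il1rl1 among them, summed to 1251 to 2050 CPM in mast cells, against 176 to 236 CPM in other cells, with Gata3, Areg, Il5 and Klrg1 at 0.

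Mast cells were next set against all other kept cells of the same library, by edgeR's quasi-likelihood test on summed counts with the library as a block. The cells were picked by 6 genes of these same counts, so the result describes what else marks them and is not independent support. The 4 libraries come from 2 pools of mice. Of 2004 genes tested, the 8 measurable rule genes left out, 338 (16.9%) were higher and 485 (24.2%) lower in mast cells at an adjusted p under 0.05. The median log2 difference of all genes was -0.30.

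The largest differences were in receptors and amine handling. Mrgprb2 was higher by 11.41 on the log2 scale (SE 0.52), Mrgprb1 by 11.38 (SE 0.55) and Mrgprx2 by 11.33 (SE 0.85). Tph1 was higher by 10.83 (SE 0.99), the serotonin transporter Slc6a4 by 10.79 (SE 0.58), Slc18a2 by 9.56 (SE 0.63) and Hdc by 9.47 (SE 0.62). Genes were named here only where mast cells lay above the other cells in 4 of 4 libraries. Other cells of any library held at most 24.9 CPM of the 25 higher genes named (Hdc, Lin+ control). These genes thus reached the filter on abundance (a mean of at least 74.5 CPM) through the mast cells, which fixed their direction. Slc6a4 stood at 943 CPM in Lin+ iAdFASNKO, 827 in Lin+ control, 838 in Lin- iAdFASNKO and 422 in Lin- control mast cells.

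Less familiar genes stood at the same height. Cyp11a1, the enzyme that begins steroid synthesis from cholesterol, was higher by 10.40 (SE 0.54), the flippase Atp8b5 by 10.68 (SE 0.49), and Hs6st2, a heparan sulphate 6-O-sulphotransferase, by 9.97 (SE 0.63). Cd200r3, an activating receptor of mast cells and basophils, was higher by 9.80 (SE 0.53), Kit by 9.23 (SE 0.52), Adora3 by 8.91 (SE 0.84) and Tpsg1 by 10.70 (SE 0.78). Then came the GTPases Rab44 (8.44, SE 0.77) and Rab27b (7.71, SE 0.54), Esyt3 (8.29), the channel subunit Kcne3 (7.92), Gcsam (7.43) and Rgs18 (6.63). Of factors, Gata2 was higher by 7.65 (SE 0.50) and Tal1 by 6.81 (SE 0.74), and Hpgds was higher by 7.43 (SE 0.86) and Il1rl1 by 6.97 (SE 0.43). Osm, a cytokine of the IL-6 family, was higher by 6.76 (SE 1.39), but 49 of its 60 UMIs were in Lin- control, and without the 4 cells it was too low to be tested.

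Among genes with at least 20 mast cell UMIs, the 8 lower by the most were genes of fibroblastic cells. The rule left out cells with a UMI of the progenitor gene Pdgfra, so these differences are not independent of it. Dcn had a log2 difference of -5.64 (SE 0.53), and Col1a1, Col3a1, Sparc, Col1a2, S100a6, Gsn and Timp2 had log2 differences between -5.29 and -4.00. Listed genes with fewer mast cell UMIs lay lower still, such as Acta2 of smooth muscle (-6.80, 1 UMI), H2-Aa (-6.74, 1 UMI), Fabp4 (-6.55, 1 UMI) and Cd74 (-6.10, 4 UMIs). Acta2, H2-Aa, Fabp4 and Cd74 reached the filter on abundance (a mean of at least 74.5 CPM) only through the other cells, so their direction was fixed. When only other cells with a Ptprc UMI were the comparator, 324 of 1923 genes (16.8%) were higher and 371 (19.3%) lower in mast cells.

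**Figure D3:**
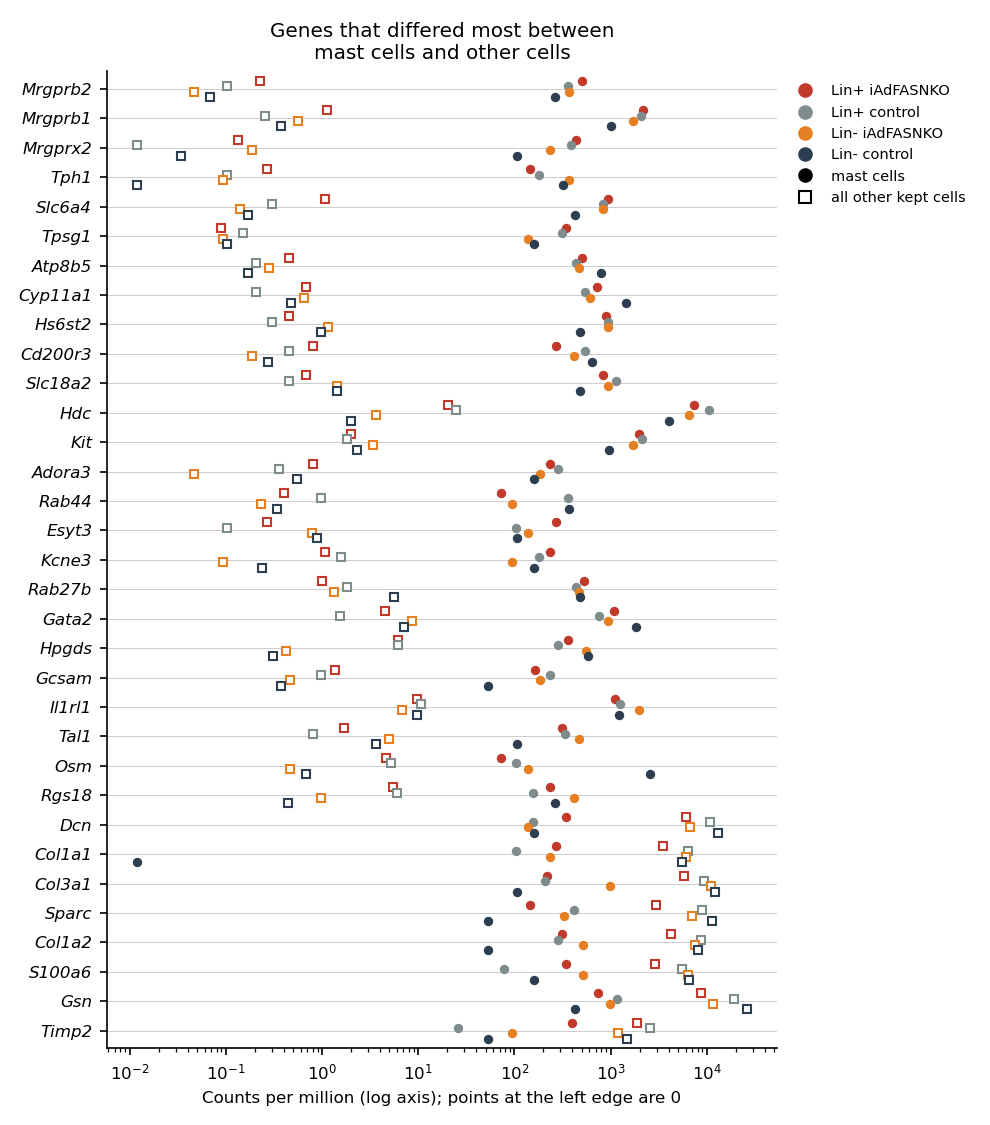
Expression in CPM (horizontal log axis, with points at the left edge standing for 0) of the 25 genes highest and 8 genes lowest in mast cells relative to other cells among those with at least 20 mast cell UMIs, with filled circles for mast cells, open squares for all other kept cells and 1 colour per library. The circles lie right of the squares in 4 of 4 libraries for the upper 25 genes and left of them for the lower 8, as the choice of these genes required.

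The gene lists are read beside the 16.9% higher and 24.2% lower over all genes tested. Of 16 genes of amine and proteoglycan storage 8 reached the filter on abundance, and each was higher (Hdc, Hs2st1, Tph1, Chst15, Srgn, Ndst2, Ext1 and Slc18a2). Of 18 surface receptors 6 reached it, and each was higher (Il1rl1, Adora3, Kit, Mrgprb1, Mrgprb2 and Csf2rb). These receptors lay far under the filter of 74.5 CPM in other cells and reached it through the mast cells. Their direction was thus fixed by the filter. The same holds for Hdc, Tph1, Slc18a2 and Ndst2 of the storage list. It also holds for Inpp5d, Lyn, Lat2, Rab27b, Stx3, Tal1, Gata2 and Mitf of the lists that follow, under the filter in other cells of each library. Meis2 lay under it in other Lin+ cells only (39.3 CPM in iAdFASNKO, 50.1 in control). Fcer1g lay under it in other Lin- cells only (10.6 CPM in iAdFASNKO, 14.8 in control). The counts of higher genes in these lists therefore support nothing. Of 16 IgE receptor genes 6 were tested and 4 were higher (Inpp5d, Fcer1g, Lyn and Lat2), with 0 lower. Of exocytosis genes Rab27b and Stx3 were higher among 4 tested. Of factors 6 of 9 were higher (Meis2, Tal1, Gata2, Mitf, Ikzf1 and Runx1) and Maf was lower. Of 10 lysosome genes tested 2 were higher, Ctsd among them, and 6 lower (Ctsz, Cd9, Lamp1, Ctsb, Hexa and Ctsl; median log2 difference -1.77). Against other cells with a Ptprc UMI only, 3 of the 10 were higher and 3 lower: Lamp1, Ctsl and Cd9 were no longer called, and Cd63 had a log2 difference of 1.88, against -0.10 over all other cells.

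Genes of lipid handling and antigen display were scarce. Fabp4, Plin2 and Lpl were lower among 6 lipid genes tested and none was higher, and Pparg and Cd36 were at 0. Against other cells with a Ptprc UMI only, 3 lipid genes were tested, of which 1 was higher and 2 lower. All 4 tested MHC class II genes (H2-Ab1, H2-Aa, H2-Eb1 and Cd74) were lower, with 4 Cd74 UMIs in the 67 cells. These MHC genes and Fabp4 lay under the filter of 74.5 CPM in mast cells of each library. They reached it through the other cells, so their direction was fixed by the filter. Of cytokine genes Osm, Ccl2, Ccl3 and Tnf were higher among 10 tested and Cxcl1 was lower. Osm stood at no more than 5.18 CPM in other cells of any library and reached the filter through the mast cells. The Ccl3 difference rests on the 4 cells, which hold all of its UMIs in mast cells.

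Immediate early genes, which are transcribed within minutes of a stimulus, were high in the mast cells. Of 24 genes of this list tested, 16 were higher and 3 lower (Btg2, Atf3 and Klf4), with a median log2 difference of 1.78. Egr3, among the higher, lay under the filter of 74.5 CPM in other cells of each library, so its direction was fixed. Jun stood at 12634 CPM in Lin+ iAdFASNKO, 10775 in Lin+ control, 6614 in Lin- iAdFASNKO and 6282 in Lin- control mast cells, against 969 CPM in Lin+ iAdFASNKO, 1690 in Lin+ control, 2496 in Lin- iAdFASNKO and 3841 in Lin- control for the other cells (log2 difference 1.88, SE 0.54). Egr1 stood at 10785 CPM in Lin+ iAdFASNKO, 5245 in Lin+ control, 6428 in Lin- iAdFASNKO and 5913 in Lin- control mast cells, against 505 CPM in Lin+ iAdFASNKO, 1180 in Lin+ control, 1789 in Lin- iAdFASNKO and 2279 in Lin- control for the other cells (log2 difference 2.14, SE 0.54). The mast cells lay above the other cells in each library, and for Jun the Lin+ mast cells lay above the Lin- mast cells while the order of the other cells was the reverse.

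Dusp1, a phosphatase that ends MAP kinase signals, was higher by 3.15 (SE 0.45) and the heat shock cochaperone Dnajb1 by 3.41 (SE 0.47). Fos was higher in 3 of 4 libraries and did not pass (log2 difference 1.5, SE 0.63, edgeR adjusted p = 0.079). Atf3, another gene of the early response, gave 2 UMIs in the 67 mast cells and had a log2 difference of -4.02 (SE 0.72).

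**Figure D4:**
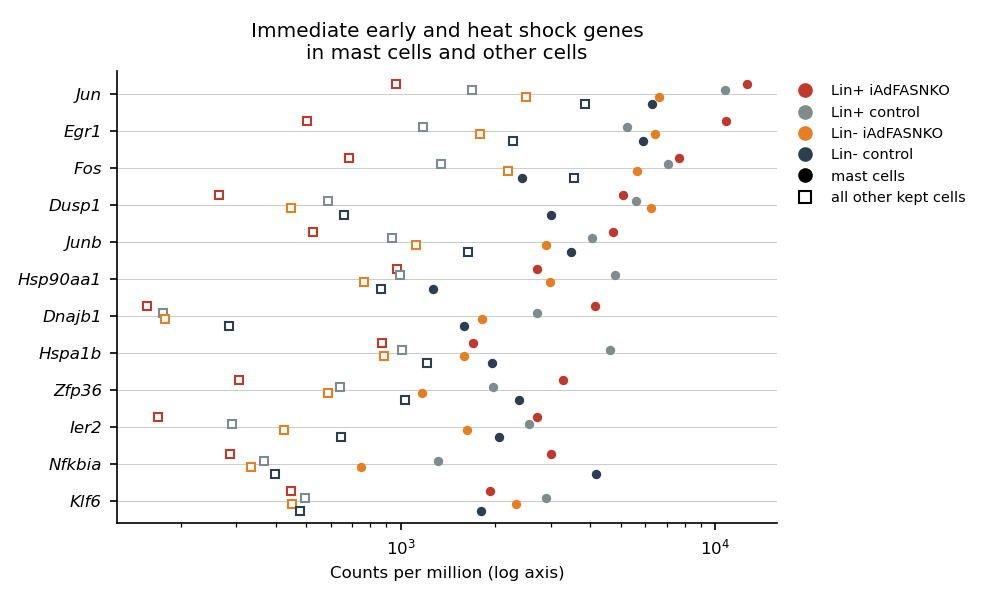
Expression in CPM (horizontal log axis) of the 12 immediate early and heat shock genes highest in mast cells, with filled circles for mast cells, open squares for all other kept cells and 1 colour per library. The circles for Jun run from 6282 to 12634 CPM and the squares from 969 to 3841 CPM, and only for Fos does a circle, that of Lin- control, lie left of its own square.

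Between genotypes, genes were compared on summed mast cell UMIs within each fraction. A gene counted as measured when the 2 libraries held 20 UMIs of it or more, and as called with a CPM ratio of at least 1.5 or at most 1/1.5 whose exact 95% binomial interval excluded 1. In Lin+, 603 genes were measured, of which 51 (8.46%) were higher and 49 (8.13%) lower in iAdFASNKO mast cells. In Lin-, 263 were measured, of which 22 (8.37%) were higher and 86 (32.7%) lower, with a median log2 ratio of -0.32. Without the 4 cells, which are all from control libraries, 51 (9.11%) were higher and 33 (5.89%) lower of 560 in Lin+, and 10 (5.1%) higher and 31 (15.8%) lower of 196 in Lin-. Of 256 genes measured in both fractions, 2 were higher and 24 lower in iAdFASNKO mast cells of both, and of 194 without the 4 cells 1 was higher and 3 lower in both. A sum over 7 to 21 cells may be moved by 1 cell, and the fractions of a genotype share a pool of mice.

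Cited2, a transcriptional coregulator that binds CBP and p300 and restrains HIF-1, was the 1 gene called higher in both fractions with and without the 4 cells. It had 90 UMIs in 18 of 21 Lin+ iAdFASNKO mast cells (1631 CPM), against 14 UMIs in 8 of 18 Lin+ control mast cells (362 CPM), a ratio of 4.51 (2.55 to 8.58). In Lin- it had 26 UMIs in 14 of 19 iAdFASNKO mast cells (1211 CPM), against 6 UMIs in 6 of 9 control mast cells (317 CPM), a ratio of 3.82 (1.54 to 11.4). The ratios without the 4 cells were 4.42 (2.41 to 8.88) in Lin+ and 2.97 (1.12 to 9.89) in Lin-. With the Cited2 UMIs of the cell that held most of them left out of each library, and totals unchanged, the ratios were 4.72 in Lin+ and 3.88 in Lin-. In other cells the Cited2 ratio was 1.17 in Lin+ and 0.880 in Lin-. Ifrd1, a coregulator of transcription, was also higher in both, at 2.07 (1.19 to 3.75) in Lin+ and 3.18 (1.14 to 10.9) in Lin-. Its Lin- ratio without the 4 cells was 3.42 (0.999 to 18.1) and no longer called.

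Of the genes lower in iAdFASNKO mast cells of both fractions, those of largest size rest on the 4 control cells. Ccl3 had 0 UMIs in Lin+ iAdFASNKO and 51 in Lin+ control mast cells, and 0 in Lin- iAdFASNKO and 166 in Lin- control mast cells. Against a floor of 3 UMIs per library it was at least 24.2-fold lower in Lin+ and at least 62.7-fold lower in Lin-. Ccl4 was at least 29.5-fold lower in Lin+ and at least 109-fold lower in Lin-, and Ccl6 at least 29.5-fold lower in Lin+ and 12.5-fold lower in Lin-. Ifitm1 was at least 16.2-fold lower in Lin+ and had a ratio of 0.0535 in Lin-. With the 4 cells left out, none of these chemokines had a UMI in any library, so no ratio could be formed. Tmsb4x, thymosin beta-4, had a ratio of 0.388 in Lin+ and 0.239 in Lin-, and without them of 1.23 (0.887 to 1.73) in Lin+ and 0.584 (0.373 to 0.915) in Lin-. Gm12840 and Gm20186 (25 to 41 control UMIs), Tyrobp, Fxyd5 and Rpl35 completed the 10 of largest size, and none of these 5 was called in both fractions without the 4 cells.

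Ly6a, Arhgdib and Hspa1b were the 3 genes lower in iAdFASNKO mast cells of both fractions once the 4 cells were left out. With all mast cells Ly6a had ratios of 0.489 in Lin+ and 0.371 in Lin-, and Arhgdib of 0.468 in Lin+ and 0.336 in Lin-, also called in both, whereas Hspa1b had 0.368 in Lin+ and 0.811 (0.494 to 1.33) in Lin-, the second not called. Without the 4 cells, Ly6a, the surface protein Sca-1, had ratios of 0.411 (0.230 to 0.721) in Lin+ and 0.253 (0.0954 to 0.613) in Lin-, beside ratios of 0.619 in Lin+ and 0.691 in Lin- for other cells. Arhgdib, an inhibitor of small GTPases in blood cells, had 0.442 (0.226 to 0.850) in Lin+ and 0.304 (0.112 to 0.764) in Lin-, beside 2.14 in Lin+ and 1.11 in Lin- for other cells. The heat shock gene Hspa1b, whose near-identical copy Hspa1a may share its reads, had 0.423 (0.321 to 0.556) in Lin+ and 0.524 (0.319 to 0.858) in Lin-, but in Lin- 28 of the 37 control UMIs lay in 1 cell.

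None of the 4 main protease genes passed the size rule in Lin+, and 3 passed it in Lin-. These 4 genes helped choose the cells, so their ratios and calls are only a description. The counts of called genes between genotypes above did not leave out the genes of the marker rule. In Lin- the median depth was 834 UMIs in iAdFASNKO and 1999 in control mast cells, and its part in these ratios was not tested. In Lin+ the CPM ratio, iAdFASNKO over control, was 0.807 (0.752 to 0.866) for Mcpt4, 0.862 (0.782 to 0.951) for Cma1, 0.979 (0.875 to 1.10) for Cpa3 and 1.04 (0.934 to 1.16) for Tpsb2. In Lin- it was 1.76 (1.59 to 1.95) for Mcpt4, 1.56 (1.31 to 1.87) for Cpa3 and 1.90 (1.55 to 2.34) for Tpsb2, called higher, and 0.978 for Cma1. Without the 4 cells the Lin- ratio was 1.14 for Mcpt4, 1.04 for Cpa3 and 1.23 for Tpsb2, none called, and Cma1 was called lower at 0.632 (0.551 to 0.726). In Lin-, 2 of the 9 control cells are among the 4.

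Hdc had a ratio of 0.691 (0.601 to 0.795) in Lin+, just inside the size rule, and 1.63 (1.22 to 2.18) in Lin-. Leaving the 4 cells out gave 0.767 (0.659 to 0.892) in Lin+ and 2.66 (1.78 to 4.09) in Lin-, the Lin- value from 140 UMIs in Lin- iAdFASNKO and 30 in Lin- control mast cells. Srgn had a ratio of 1.03 (0.792 to 1.35) in Lin+ and was lower in Lin- (0.553, 0.390 to 0.778), and at 0.464 (0.321 to 0.668) in Lin- without the 4 cells. Kit had ratios of 0.924 (0.687 to 1.25) in Lin+ and 1.81 (1.01 to 3.38) in Lin-, and 1.17 (0.651 to 2.19) in Lin- without the 4 cells. Fcer1a had 0.727 (0.417 to 1.27) in Lin+ and 0.418 (0.167 to 0.969) in Lin-, from 9 UMIs against 19, and 0.342 (0.132 to 0.835) in Lin- without the 4 cells. Fcer1a also helped choose the cells, so its ratios are only a description.

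Among listed genes beyond the granules, Vegfa had 18 UMIs in 13 of 21 Lin+ iAdFASNKO mast cells, against 2 UMIs in 2 of 18 Lin+ control mast cells, a ratio of 6.31 (1.51 to 56.1), and Csf1, the macrophage growth factor, had 32 against 11 UMIs, a ratio of 2.04 (1.00 to 4.49). Vegfa stood at 5.31 (1.27 to 47.2) and Csf1 at 6.29 (1.97 to 32.1) without the 4 cells. Both intervals are wide at these counts. Cd63 and Ctsd were lower in Lin+ iAdFASNKO mast cells, at 0.468 (0.279 to 0.772) for Cd63 and 0.491 (0.292 to 0.816) for Ctsd, beside 0.513 for Cd63 and 0.686 for Ctsd in other Lin+ cells, and at 0.446 for Cd63 and 0.533 for Ctsd without the 4 cells. Of 20 measured immediate early and heat shock genes in Lin+, 5 were higher (Nr4a2, Zfp36, Dnajb1, Nfkbia and Egr1) and 6 lower (Jund, Klf2, Klf6, Hsp90aa1, Hspa1b and Hspa1a), beside 8.46% higher and 8.13% lower over all genes measured, and the same genes were called without the 4 cells. Egr1 was higher at 2.06 (1.75 to 2.42), whereas in other Lin+ cells its ratio was 0.428. In Lin-, 4 of 18 were higher and 4 lower, beside 8.37% higher and 32.7% lower over all genes measured, and without the 4 cells 2 of 17 were higher and 3 lower. Egr1 had a Lin- ratio of 1.09 (0.841 to 1.41), and of 0.811 (0.621 to 1.06) without the 4 cells.

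Some genes of large ratio rest on few cells or move in all cells. In Lin+, Hba-a1 (20.3), Hbb-bs (17.7) and Hbb-bt (15.7) were higher in iAdFASNKO mast cells. With each gene's UMIs of its top cell left out of each library, and totals unchanged, Hba-a1 stood at 1.71 and Hbb-bs at 1.35. Vps37b had 24 UMIs against 1, in 11 and 1 cells, and Nr4a2 22 against 1, in 5 and 1 cells. In Lin-, Col3a1 (9.26) had 17 of its 21 iAdFASNKO UMIs in 1 cell, and Gm42418 (4.19), which overlaps ribosomal RNA, had a ratio of 3.51 in other cells. Ago2 (4.19, 1.39 to 16.9) and Hes1 (3.68, 1.47 to 11.0) completed the largest Lin- ratios, and neither was called without the 4 cells.

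**Figure D5:**
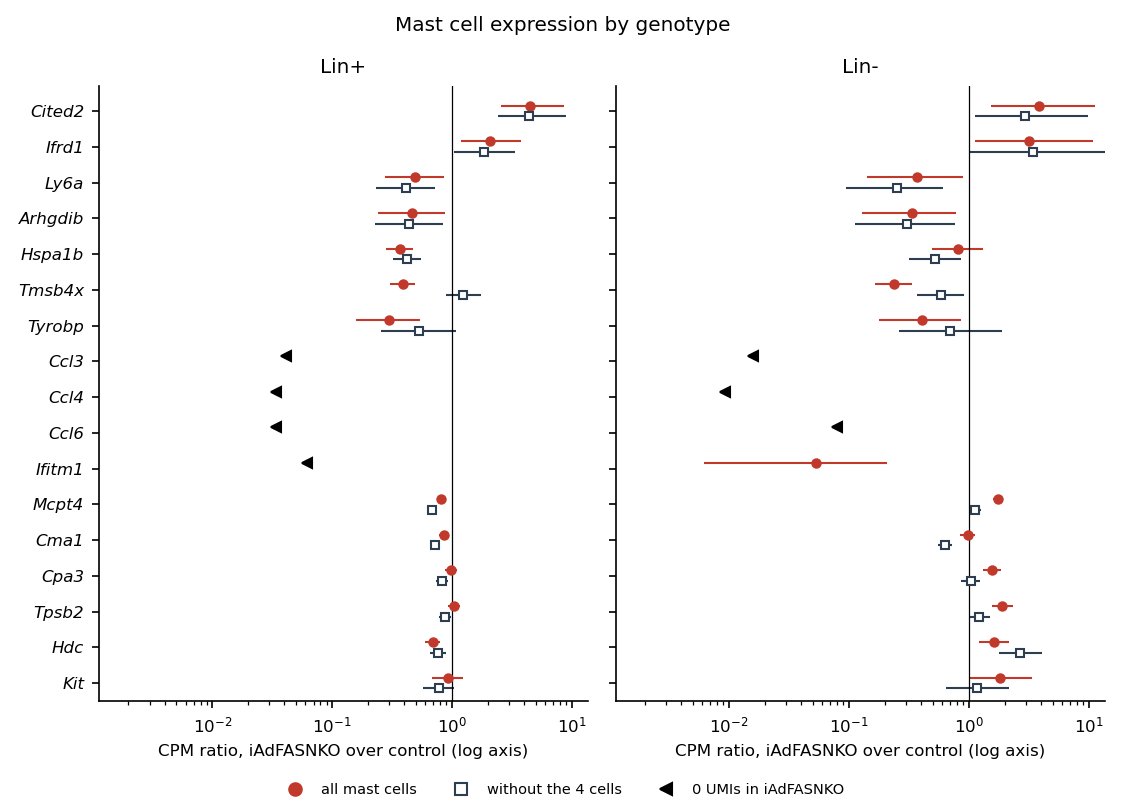
CPM ratio of iAdFASNKO over control mast cells (horizontal log axes) in Lin+ (left) and Lin- (right), with red circles for all mast cells, open squares without the 4 cells lacking Mcpt4 and Tpsb2, bars for exact 95% intervals and triangles for genes with 0 iAdFASNKO UMIs, placed at the bound from 3 UMIs. Cited2 lies right of 1 in all 4 estimates and Ly6a and Arhgdib left of it, while the chemokine triangles have no square, and the Lin- bar of Ifrd1 without the 4 cells runs past the axis to 18.1.

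Mast cells of the fractions were compared within each genotype. In iAdFASNKO, 48 of 493 genes (9.74%) were higher and 33 (6.69%) lower in Lin+ than in Lin- mast cells, and in control 38 of 371 (10.2%) were higher and 81 (21.8%) lower. Without the 4 cells, 24 of 273 (8.79%) were higher and 41 (15%) lower in control. Of 330 genes measured in both genotypes, 12 were higher and 9 lower in both. Jun was higher in Lin+, with ratios of 1.91 (1.59 to 2.30) in iAdFASNKO and 1.72 (1.40 to 2.12) in control, and the ribosomal protein gene of mitochondria Mrps6 at 2.90 (1.44 to 6.61) in iAdFASNKO and 6.85 (1.73 to 59.4) in control. With them left out, the control ratio of Jun was 1.35 and no longer called, while that of Mrps6 was 5.27 and called. Haemoglobin genes were higher in Lin+ mast cells of both genotypes, as in other Lin+ cells, and Fau and Rpl18 of the ribosome were lower. Of immediate early and heat shock genes, 9 of 20 were higher and 0 lower in Lin+ iAdFASNKO relative to Lin- iAdFASNKO mast cells, and 9 of 19 higher and 2 lower in control. Without the 4 cells, 6 of 18 were higher and 0 lower in control, and only Fos, Hsp90aa1 and Hspa1a were called higher both ways.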

How the data were processed

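Single-cell RNA from 4 libraries was read from the raw UMI counts per gene and barcode that the authors deposited as 1 matrix per genotype, with the fraction in the barcode tag per the labels. Cell Ranger 3.1.0, Seurat 3.0 and mm10 stand in the submitters' processing notes, and the matrix header names software 3.0.2. For the annotation release and the authors' barcode filter, the labels state nothing.

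Members and gene lists were chosen with earlier results of these data known. UMIs of mast cells and of other cells were summed per library. Mast cells were tested against other cells with edgeR 4.0.16 (R 4.3.3; TMM factors, library as block, Benjamini-Hochberg adjustment over all genes tested), for genes with a mean of at least 74.5 CPM, which is 10 expected UMIs in the mast cells; the procedure was tested on simulated data. This filter was set after edgeR's own filter, filterByExpr, gave too many false calls there. DESeq2 1.42.0 was an alternative. p-values measure the spread among 4 libraries from 2 pools of mice. Shares have exact Clopper-Pearson intervals, ratios of shares have Katz intervals, and ratios of CPM have conditional binomial intervals (exact), at 95% and for counting error only; no test was run between genotypes. Doublets were marked, not removed, with Scrublet in scanpy 1.11.5 (Python 3.11.15).

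Against other cells, the genes named were the 25 higher and 8 lower of largest log2 difference among those with an adjusted p under 0.05, at least 20 mast cell UMIs and 1 direction in 4 libraries. Between genotypes they were up to 10 per direction called in both fractions, then 5 per direction in each, plus up to 6 of highest CPM per list and listed genes past the size rule. Genes named for the 4 cells without Mcpt4 and Tpsb2, and those compared between fractions, were chosen after their values were seen. The alternatives tried were other cell and marker filters, thinning, denominators, scaling, count minimums and leaving out libraries or each gene's UMIs of its top cell. Results for a few genes are not reported here.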

Additional observations from a re-analysis of the deposited data

Results flagged for a closer look

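The share of mast cells, iAdFASNKO over control, lay on opposite sides of 1 in the fractions, at 0.759 in Lin+ and 1.48 in Lin-. The difference between the fractions was not tested, and both intervals included 1. This order did not hold after thinning to 1000 UMIs, with 1.01 in Lin+ and 0.929 in Lin-. Thinning left out shallower cells, among them 2 mast cells of Lin+ iAdFASNKO, 3 of Lin+ control, 10 of Lin- iAdFASNKO and 1 of Lin- control. Among cells with a Ptprc UMI both ratios lay below 1, at 0.398 in Lin+ and 0.708 in Lin-.

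For 5 genes the CPM ratio of mast cells, iAdFASNKO over control, was called in opposite directions in the fractions, and the difference itself was not tested. Ptma, prothymosin alpha, had 2.44 in Lin+ and 0.555 in Lin-. Nfkbia, the inhibitor of NF-kappa B, had 2.28 in Lin+ and 0.179 in Lin-, where 55 of the 79 control UMIs lay in 1 cell. The endoplasmic reticulum chaperone Hspa5 had 2.13 in Lin+ and 0.441 in Lin-. The mRNA-destabilising factor Zfp36 had 1.67 in Lin+ and 0.490 in Lin-. Hsp90aa1 went the other way, with 0.566 in Lin+ and 2.35 in Lin-. Without the 4 cells lacking Mcpt4 and Tpsb2, Ptma, Nfkbia and Hspa5 were still called in opposite directions, whereas Zfp36 (0.679) and Hsp90aa1 (1.59) were no longer called in Lin-.

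Barcodes that met the marker rule but exceeded the mitochondrial limit numbered 9 in Lin+ iAdFASNKO, 19 in Lin+ control, 1 in Lin- iAdFASNKO and 4 in Lin- control. They entered the comparisons of expression only in the alternative with a limit of 20%.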

How the results depend on the processing

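Depth is the main limit: the mast cell sums hold 55170 UMIs in Lin+ iAdFASNKO, 38702 in Lin+ control, 21468 in Lin- iAdFASNKO and 18942 in Lin- control, and Lin- control has 9 cells. No paired analysis was possible between genotypes because each genotype and fraction has 1 library. Of the counts and shares, 90 values held under the alternatives and 34 moved, and the cause was not tested. The 33 genes named against other cells held direction and call in 588 values under the alternatives and lost the call in 5. Genes too low to be tested under a setting gave no value there, and with the stricter cell filter 20 of the 33 gave one. The genes named between genotypes kept their call in 332 cases, lost it in 63 and turned round in 7. Genes with 0 UMIs gave no value on per-cell CPM. Genes whose UMIs vanished under a setting also gave no value and are not among those that lost the call. Without the 4 cells lacking Mcpt4 and Tpsb2, 11 values kept the call, 11 lost it and 1 turned round, while Ccl3, Ccl4 and Ccl6 gave none.

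The ratio of shares was 0.398 in Lin+ and 0.708 in Lin- among cells with a Ptprc UMI. It was 1.01 in Lin+ and 0.929 in Lin- after thinning to 1000 UMIs, which left out shallower cells.

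The number of genes tested changes with the setting and is given beside each count. For the library block in mast cells against other cells, the fit with no replicate block called 361 genes higher and 524 lower of 2004. Of the same 2004 genes, DESeq2 called 324 and 490, and RLE size factors 319 and 523. Genes higher numbered 115 of 659 with the stricter cell filter. Genes lower numbered 196 of 659 with the stricter cell filter, 280 of 3125 with at least 2 markers and 284 of 2716 with no excluded genes. They numbered 1282 of 21292 with no filter on low counts and 1543 of 12359 with filterByExpr (added after the data were seen). Leaving out 1 library gave 192 to 318 higher and 267 to 396 lower. These were 201 and 275 of 1095 without Lin+ iAdFASNKO and 192 and 267 of 1360 without Lin+ control. They were 243 and 296 of 1643 without Lin- iAdFASNKO and 318 and 396 of 1690 without Lin- control.

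Between genotypes, each count is given with the number of genes measured. In Lin+, genes higher in iAdFASNKO mast cells numbered 23 of 192 with the stricter cell filter, 27 of 224 with at least 50 UMIs and 138 of 603 on the mean of per-cell CPM. Genes lower numbered 31 of 539 with at least 4 markers, 87 of 1367 with at least 10 UMIs and 31 of 224 with at least 50 UMIs. They numbered 31 of 603 with each gene's UMIs of its top cell left out and 110 of 603 on per-cell CPM. In Lin-, genes higher numbered 66 of 622 with at least 2 markers, 11 of 189 with at least 4 and 48 of 468 with no excluded genes. They numbered 14 of 195 without cells with Mcpt8 or Prss34 and 10 of 196 without the 4 cells lacking Mcpt4 and Tpsb2. With at least 10 UMIs they numbered 37 of 539, with at least 50 UMIs 11 of 101, and on per-cell CPM 37 of 263. Genes lower numbered 147 of 622 with at least 2 markers, 31 of 189 with at least 4 and 38 of 195 without cells with Mcpt8 or Prss34. They numbered 31 of 196 without the 4 cells, 47 of 101 with at least 50 UMIs and 33 of 263 with each gene's UMIs of its top cell left out. The cell filters and the removal of the 4 cells change which cells are summed, and the 4-cell and 20% mitochondrial settings were added after the data were seen.

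Log2 ratios that turned round were those of Tmsb4x in Lin+, at 0.32 with at least 4 markers and 0.30 without Scrublet doublets or without the 4 cells, of Col3a1 in Lin-, at -0.27 with the stricter cell filter, -0.30 with at least 2 markers and -1.35 with no excluded genes, and of Ifrd1 in Lin-, at -0.018 with at least 2 markers.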

Other observations

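Of the barcodes that met the marker rule with over 10% mitochondrial UMIs, 10 came from iAdFASNKO and 23 from control libraries, beside 40 iAdFASNKO and 27 control mast cells within the limit.

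Mcpt4 made up 40.8% of the summed UMIs of Mcpt4, Cma1, Cpa3 and Tpsb2 in mast cells of Lin+ iAdFASNKO, against 49.4% in other cells of that library. In Lin- iAdFASNKO it made up 51.1% in mast cells and 52.0% in other cells, and in Lin- control 43.8% in mast cells and 41.1% in other cells. In Lin+ control it made up 44.8% in mast cells, and other cells held 111 Mcpt4, 54 Cma1, 26 Cpa3 and 31 Tpsb2 UMIs.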
